A study of Homo sapiens with 4 samples.

Results

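The 48 genes described here are interferon-stimulated genes, which are genes whose transcription rises when cells sense interferon. They were taken by their GENCODE v44 gene names from a fixed list, and all 48 were found among the 19626 protein-coding genes with a coding transcript start on chromosomes 1 to 22 and X. The rule for membership uses gene names alone. Several lie side by side, so that the 48 genes occupy 34 loci when neighbours within 50 kb are joined, and 24 of the genes share 10 of these loci.

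SMC1 and CTCF were measured by HiChIP, a Hi-C experiment with an added immunoprecipitation step, in the lymphoblastoid cell line (LCL) HG00731, a B cell line immortalised with Epstein-Barr virus. SMC1 is a subunit of cohesin, and its chromatin was cross-linked with formaldehyde (FA) followed by ethylene glycol bis(succinimidyl succinate) (EGS), whereas the CTCF chromatin was cross-linked with FA alone. Each target had 2 biological replicates, which the authors pooled into 1 peak list and 1 loop list, so no value has a spread between replicates and no test between groups was possible. Fixation and target changed together and cannot be told apart. The labels name no interferon treatment and no genetic change, all values come from 1 cell line, and expression was not measured in these files, so neither the LCL label nor the activity of these genes was checked.

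Type I interferon activates the kinases JAK1 and TYK2, which phosphorylate transcription factors such as STAT2. STAT2 and IRF9 are parts of the complex ISGF3, which binds the interferon-stimulated response element (ISRE), while the gamma-activated site (GAS) is the element known from the response to interferon gamma. Cohesin extrudes chromatin loops and is halted where CTCF occupies its motif, so peaks and loops of both proteins describe how a gene sits in the folded chromosome.

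The ISRE core, GAAANNGAAA on either strand, was searched in the RefSeq promoters (GRCh38.p14, 250 bases before to 50 after the start) that matched 39 of the 48 genes by symbol. It was present in 24 of the 39 (61.5%) and in 487 of 15277 coding promoters (3.19%). At least 2 matches, which may overlap, were found in 14 of the 39. The GAS core, TTCNNNGAA, which reads the same on both strands, was present in 9 of the 39 (23.1%) and in 6.95% of coding promoters. The 50-base stretches below, in hg38 and 5′ to 3′ on the strand of the gene, show the core in members of different families, chosen outside annotated UTR exons, and capitals mark every match to the core, with overlapping matches run together.
ISG15 (chr1:1013364-1013413, plus strand, intron of ISG15): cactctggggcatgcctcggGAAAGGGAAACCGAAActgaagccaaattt
HERC5 (chr4:88456974-88457023, plus strand, intergenic): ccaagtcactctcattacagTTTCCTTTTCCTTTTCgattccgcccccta
IFIT1 (chr10:89392487-89392536, plus strand, intron of LIPA): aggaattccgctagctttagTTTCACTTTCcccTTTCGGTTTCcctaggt
IFITM3 (chr11:320883-320932, minus strand, intron of IFITM3): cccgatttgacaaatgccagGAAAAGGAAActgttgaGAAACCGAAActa
IFI6 (chr1:27672319-27672368, minus strand, intron of a long noncoding gene): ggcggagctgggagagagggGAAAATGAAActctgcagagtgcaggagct
IFI44L (chr1:78620264-78620313, plus strand, intron of IFI44L): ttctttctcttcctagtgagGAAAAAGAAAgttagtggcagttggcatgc
SAMD9 (chr7:93118086-93118135, minus strand, intergenic): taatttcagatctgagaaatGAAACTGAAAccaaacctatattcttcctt
IFI27 (chr14:94110608-94110657, plus strand, intron of IFI27): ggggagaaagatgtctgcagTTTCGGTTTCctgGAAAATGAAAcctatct

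SMC1 peaks lay at nearly all of these genes, whereas CTCF peaks lay at about as many as among coding genes at large. An SMC1 peak was found within 1 kb of a coding transcript start in 46 of 48 genes (95.8%, Wilson 95% interval 86.0 to 98.8%), beside 63.3% of all coding genes. A CTCF peak was found in 26 of 48 (54.2%, 40.3 to 67.4%), beside 45.0% of all coding genes, which lies inside the interval. All 26 genes with a CTCF peak also had an SMC1 peak, and peaks of both targets marked 43.2% of all coding genes. The remaining 20 genes with SMC1 (41.7%, 28.8 to 55.7%) had an SMC1 peak and no CTCF peak, which was the case for 20.1% of all coding genes. Only IRF7 and IFI27 had neither, a state shared by 34.9% of all coding genes. These intervals cover counting error only, and since neighbours share peaks, the genes are not independent. Counted by locus, 32 of the 34 loci had an SMC1 peak at a member start and 20 had a CTCF peak. The SMC1 start peaks were wider than those of CTCF, with medians of 966 and 596 bases in members and 974 and 572 in coding genes. A wide SMC1 peak can thus reach the window where CTCF does not. With a 2 kb window, 31 members had a CTCF peak, beside 51.1% of coding genes.

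Part of the SMC1 share went with the number of annotated starts, of which the members had a median of 5 and all coding genes a median of 3. Among genes with 2 to 4 starts, 21 of 21 members and 64.2% of coding genes had an SMC1 peak, and 10 of the 21 (47.6%) and 21.8% had SMC1 without CTCF. With 5 or more starts the SMC1 shares were 24 of 26 members (92.3%) and 79.9% of coding genes. Measured from the canonical start alone, an SMC1 summit lay within 1 kb in 41 of 48 members and in 53.4% of coding genes, and a CTCF summit in 18 of 48 members and in 35.6% of coding genes. So the share of members with an SMC1 peak was above that of coding genes in both classes of starts given. The difference was smaller with 5 or more starts, and no interval was computed within the classes.

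**Figure D1:**
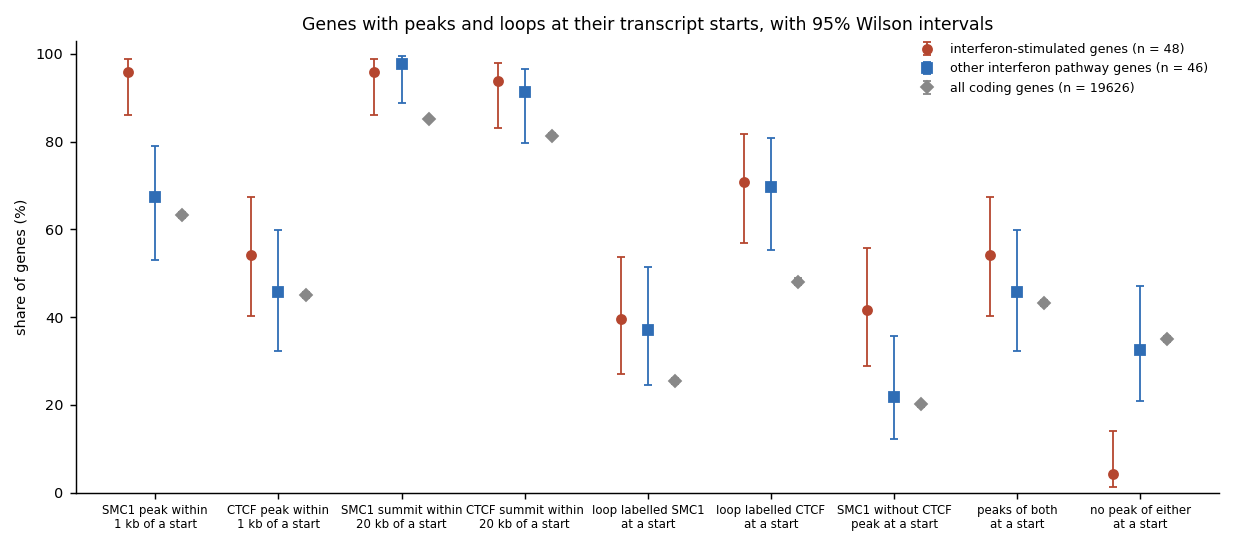
Share of genes (%) with a peak, a summit or a loop at a transcript start, for the 48 interferon-stimulated genes (circles), 46 other genes of the interferon pathway (squares) and all 19626 coding genes (diamonds), with Wilson 95% intervals. The members lie at 95.8% for an SMC1 peak and at 54.2% for a CTCF peak, beside 63.3% and 45.0% of all coding genes.

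The peaks themselves were not stronger than at other coding genes. Of all peaks within 1 kb of a start, that with the highest −log10 q was taken for each gene. Its summit lay over 1 kb from the canonical start in 18 of 46 members for SMC1 and in 11 of 26 for CTCF, and the summits of the targets were over 1 kb apart in 3 of the 26. The chromatin was cut with the restriction enzyme DpnII before ligation. Whether summits follow its cut sites or the protein was not tested, so all distances are those of listed summits. The SMC1 peaks of the 46 members had a median −log10 q of 28.5, from 2.29 at LGALS3BP to 252 at IFI16, beside a median of 32.5 over the coding genes with a peak. Their median fold enrichment over the local background was 3.61, beside 4.47, and 16 of the 46 exceeded that value. For CTCF the median −log10 q was 27.8 over 26 members, beside 27.4, and the median fold enrichment was 5.40, beside 5.70. Members therefore had SMC1 peaks more often than coding genes at large, at lower median enrichment. SMC1 was sequenced more deeply than CTCF per the study, and the order of the targets changed with the measure, since CTCF exceeded SMC1 in 12 of 26 genes by −log10 q and in 18 by fold enrichment.

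**Figure D2:**
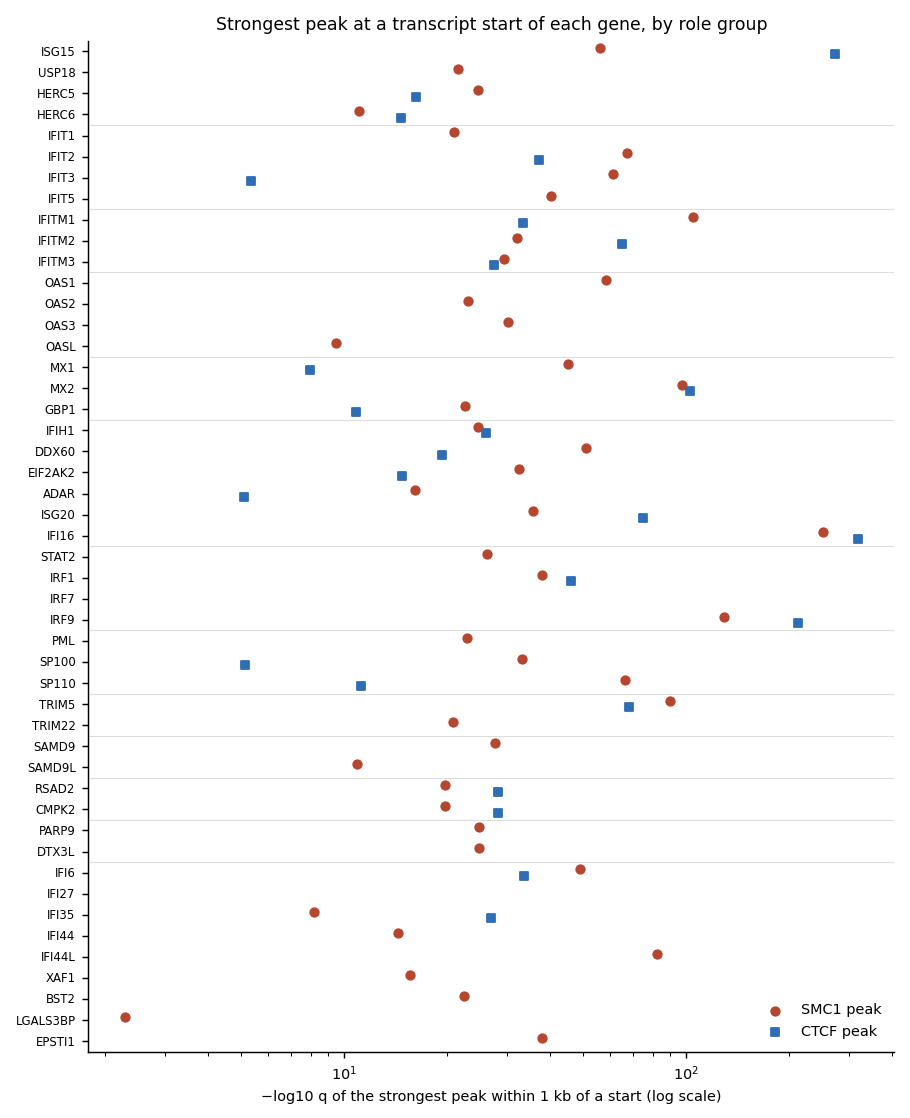
The −log10 q (log scale) of the strongest SMC1 (circles) and CTCF (squares) peak within 1 kb of a start for each of the 48 genes, with lines between role groups. IFI16 is highest for both targets, 20 genes have an SMC1 symbol alone, and IRF7 and IFI27 have no symbol.

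A group of 6 genes was listed here as nucleic acid sensors and RNA-acting enzymes, with the OAS and IFIT families kept apart. All 6 had peaks of both targets. IFI16, a nuclear sensor of foreign DNA, had the highest peak of both targets among the members, with −log10 q values of 252 for SMC1 and 317 for CTCF and fold enrichments of 8.23 and 15.9. Both summits fell on the same base, at -1086 bases from the earliest annotated start and -11025 bases from the canonical one, where SMC1 reached only 43.0 and CTCF 4.96. This strong peak is thus a feature of the 5′ end of the annotated locus and not of the canonical promoter. IFIH1, the cytoplasmic sensor of long double-stranded RNA also known as MDA5, had an SMC1 value of 24.7 and a CTCF value of 26.03, with summits 26 and 66 bases inside the gene. EIF2AK2, the RNA-activated kinase PKR, had 32.4 and 14.8. DDX60, a helicase that promotes RNA sensing, had 51.1 and 19.3. ISG20, an exonuclease, was the only gene of this group besides IFI16 and IFIH1 where CTCF (74.9) exceeded SMC1 (35.8). ADAR, which edits adenosines in double-stranded RNA, was low in both (16.2 and 5.12).

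The OAS genes make the second messenger that activates RNase L, except for OASL, which lacks that activity. All 4 had an SMC1 peak within 1 kb of a start and none had a CTCF peak there. The SMC1 −log10 q was 58.2 at OAS1, 30.1 at OAS3, 23.003 at OAS2 and 9.47 at OASL. At OAS3 a narrower CTCF peak of 6.15 had its summit on the same base as SMC1, but lay just outside that window. CTCF was nevertheless close to OAS1, since the strongest CTCF peak of the OAS locus, with a −log10 q of 307 and a fold enrichment of 14.4, had its summit at -6416 bases from the canonical OAS1 start. SMC1 reached 194 at the same place. The other SMC1-only families were IFI44 with IFI44L, given below, the SAMD9 pair, and PARP9 with its partner DTX3L. The SAMD9 pair are antiviral factors active against poxviruses (27.6 at SAMD9 and 10.9 at SAMD9L). PARP9 and DTX3L, an ADP-ribosyltransferase and an E3 ubiquitin ligase, are transcribed away from each other. They share 1 SMC1 peak of 24.9, with its summit 169 bases inside PARP9. The strongest CTCF peak of the PARP9 and DTX3L locus, of 37.4, had its summit 3579 bases inside PARP9.

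The IFIT genes, which bind viral RNA, and the IFITM genes, which block fusion of viruses with membranes, differed in CTCF. All 4 IFIT genes had SMC1 peaks, of 67.3 at IFIT2, 61.1 at IFIT3, 40.4 at IFIT5 and 21.0 at IFIT1. CTCF was called at IFIT2 (37.1) and IFIT3 (5.35) but not at IFIT1 or IFIT5. The peak of IFIT2 lay at an upstream alternative start, and at its canonical start SMC1 reached 24.8. Both peaks of IFIT3 lay at an alternative start, and the summit nearest to its canonical start was 6105 bases away for SMC1 and 5066 for CTCF. All 3 IFITM genes had both peaks. Only IFI16 and IRF9 exceeded IFITM1 in SMC1, which had 105 beside 33.3 for CTCF, with its SMC1 summit 28 bases after a start. At IFITM2 CTCF (64.8) exceeded SMC1 (32.0) at an alternative start, and at the canonical start the values were 41.2 and 30.6. At IFITM3 CTCF reached 27.4 and SMC1 18.7 at the canonical start, whereas the strongest SMC1 peak, of 29.4, lay at -6283 bases.

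Of the GTPases, MX2, which acts against HIV-1, had 97.4 for SMC1 and 102.4 for CTCF next to an alternative start 7 kb inside the gene. At its canonical start it had an SMC1 peak of 63.4 without CTCF. MX1, which acts against influenza virus, had 45.2 and 7.94, with that SMC1 peak at an alternative start. An SMC1 peak of nearly the same value, 45.02, had its summit at -200 bases from the canonical MX1 start, and the CTCF summit was at -235. GBP1, a guanylate-binding protein that attacks vacuoles of pathogens, had 22.6 and 10.8. ISG15, a ubiquitin-like modifier, had the second highest CTCF value at a start among the members, 271, beside 56.0 for SMC1. That peak lay at an alternative start, at -11362 bases from the canonical one. At the canonical ISG15 start, SMC1 reached 29.7 with its summit at -130 bases, and the ISRE core began at -113, while the nearest CTCF summit was 2104 bases away. HERC5, the ligase that attaches ISG15, had 24.6 and 16.2, its paralogue HERC6 had 11.1 and 14.7, and USP18, the protease that removes ISG15, had an SMC1 peak of 21.6 alone.

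Among the transcription factors, IRF9, the DNA-binding subunit of ISGF3, was exceeded only by IFI16 for SMC1 (129) and only by IFI16 and ISG15 for CTCF (212), with summits 21 and 25 bases before a start. This is the strongest pair of peaks that lay right at a canonical start. IRF1, which activates interferon and antigen presentation genes, had 37.9 and 45.96 at summits 474 and 473 bases inside the canonical start, with a far stronger peak of 347 and 245 lying at -10321 and -10286 bases from that start. STAT2 had SMC1 alone, at 26.3. The nuclear body proteins SP110 and SP100 had 66.3 and 33.1 for SMC1 beside 11.2 and 5.13 for CTCF, all at alternative starts, while the SMC1 peak nearest to the canonical start had 20.3 at SP110 and 5.89 at SP100, without CTCF within 1 kb. PML had SMC1 alone at 22.97, with a CTCF peak of 283 at -2319 bases. TRIM5, the restriction factor that recognises retroviral capsids, had 90.01 and 68.3, whereas its neighbour TRIM22 had an SMC1 peak of 20.9 alone.

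RSAD2, which encodes viperin, and CMPK2, whose product feeds it nucleotides, shared 1 peak of each target, of 19.7 for SMC1 and 28.2 for CTCF. That peak lay 12896 bases or more from the canonical RSAD2 start, where SMC1 had 4.37 and CTCF was not listed. Of the other 9 interferon-induced genes, 8 had SMC1 and 2 had CTCF. IFI44L had the highest SMC1 value of these, 82.2, in a wide peak that reached the 1 kb window of an upstream alternative start. Its summit lay at -2252 bases from the canonical start. A narrower CTCF peak of 107, with a fold enrichment of 13.3, had its summit at -2285 bases and lay outside that window. IFI44L thus counts as SMC1 alone although CTCF was listed at the same place. IFI6, which stabilises mitochondria, had 48.9 with CTCF at 33.7. Within 1 kb of a start, IFI35 was the only one where CTCF (26.9) exceeded SMC1 (8.19). EPSTI1 (37.98), BST2 (22.4), the tetherin that retains virus particles, XAF1 (15.6), IFI44 (14.4) and LGALS3BP (2.29) had SMC1 alone. The LGALS3BP peak was close to the limit of the list, which stops at a q of 0.01.

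IRF7, the factor that amplifies interferon alpha production, and IFI27, a mitochondrial protein, had no peak of either target at a start and no summit within 20 kb. The stretch around the canonical IRF7 start without an SMC1 peak was 238 kb, and that around IFI27 was 1540 kb. Both starts are also present on alternate sequences of the hg38 genome, since 99.5% of the 31-base words in the 2 kb around the IRF7 start and 100% of those around the IFI27 start occur there. Over all coding genes, 739 had at least 90% of their words on alternate sequences, and 7 of these (0.947%) had an SMC1 peak, against 66.6% of the 17471 genes with under 10%. The authors kept only alignments with a mapping quality above 30. The missing peaks of IRF7 and IFI27 can therefore not be told apart from the near absence of listed peaks at such starts. Without the 739 genes, an SMC1 peak was present in 46 of 46 members and in 65.7% of coding genes.

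Within 20 kb, where the windows of neighbouring genes overlap, the shares of members were again above those of coding genes. An SMC1 summit lay within 20 kb of a start in 46 of 48 members (95.8%), beside 85.1% of all coding genes, and a CTCF summit in 45 of 48 (93.8%, 83.2 to 97.9%), beside 81.3%. The difference was smaller than within 1 kb for SMC1 and larger for CTCF. SAMD9 was the member with SMC1 summits and no CTCF summit in this window. The median number of SMC1 summits was 5 per member and 3 per coding gene, and that of CTCF summits was 2 in both. These counts join the windows of all starts of a gene. The members had a median of 5 starts and coding genes 3, so a wider span can be searched at members. From the canonical start, the nearest SMC1 summit was at a median of 204 bases in the members and 812 bases in all coding genes. For CTCF the medians were 2080 and 3420 bases, so that in both sets SMC1 lay closer than CTCF.

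**Figure D3:**
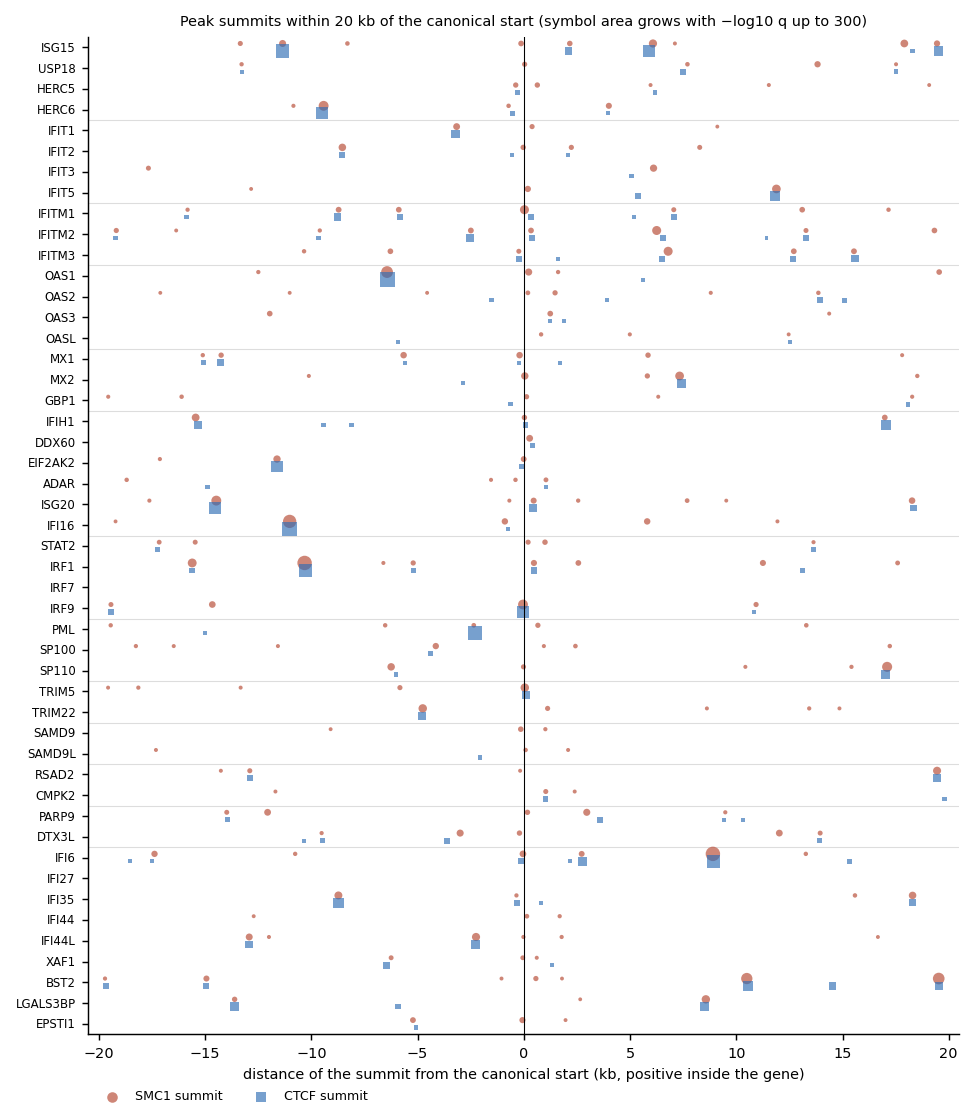
Distance (kb) of SMC1 (circles) and CTCF (squares) summits from the canonical start of each gene, positive inside the gene, with symbol area growing with −log10 q. Summits of SMC1 line up at 0 for most genes, while the CTCF symbols of OAS1 and IFI16, with −log10 q of 307 and 317, lie upstream.

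SMC1 summits fell somewhat more often inside the genes than at coding genes at large. The strongest start peak of SMC1 had its summit at or after the nearest start in 29 of 46 members (63.0%) and in 47.3% of coding genes with a peak, and within 100 bases of it in 14 of 46 (30.4%) and in 24.5%. With the strongest start peak of each gene counted once, the ISRE core lay within 50 bases of the summit in 7 of 44 SMC1 peaks of the members (15.9%), beside 1.31% of 11125 such peaks of coding genes and 1.99% of all 96855 SMC1 peaks. These 7 were the peaks of IFI6, EIF2AK2, IFIH1, SAMD9, IFITM1, EPSTI1 and MX1, and the weaker SMC1 peaks at the canonical starts of ISG15 and RSAD2 also held it. The peaks were taken at starts, and the core was in 61.5% of member promoters and 3.19% of coding promoters. The share at summits therefore cannot be told apart from the content of the promoters. Among members with a RefSeq promoter, an SMC1 peak was found in 23 of 24 with the core and in 15 of 15 without, and the median fold enrichment was 4.25 and 3.52. The RefSeq start was not always the canonical one, as at RSAD2, ADAR, MX1 and SP110. RSAD2 thus counts as without the core, although the peak at its canonical start held it. Among all coding genes the share with an SMC1 peak was 58.5% with the core and 65.6% without. The core was thus no more frequent at starts with an SMC1 peak over all coding genes, and a match is a description of letters, not of binding.

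The CTCF peaks that carry the strongest values were then read for the letters CCANNAGNNGGC, a core of the CTCF motif, on either strand. With the strongest CTCF start peak of each gene counted once, 7 of 25 whole peaks held it in the members (28.0%), beside 10.9% of 7949 in coding genes and 15.5% of all 62869 CTCF peaks. Within 50 bases of the summit it lay in 2 of the 25 (8.0%), beside 2.5% and 4.24%. No interval was computed for these few peaks. The following stretches of 101 bases, in hg38 and on the plus strand, show the strongest CTCF peaks at or near the members with the highest CTCF values and in some family loci, chosen outside exons. Capitals mark the core, which OAS lacks, so that its stretch is centred on the summit. The other stretches are centred on the core, which at HERC and ISG15 lay at 93 and -99 bases from the summit. Their stretches thus do not hold the summit. Among the loci read but not shown, IRF9 and SP100 with SP110 also held the core. The strongest peaks of IRF1 (245), TRIM (199), RSAD2 with CMPK2, IFI44, IFITM, SAMD9, and PARP9 with DTX3L lacked it.
IFI16 (chr1:158998821-158998921, intergenic, −log10 q 317): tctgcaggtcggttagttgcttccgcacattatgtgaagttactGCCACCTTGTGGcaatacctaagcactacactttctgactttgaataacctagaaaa
OAS (chr12:112900496-112900596, intergenic, 307): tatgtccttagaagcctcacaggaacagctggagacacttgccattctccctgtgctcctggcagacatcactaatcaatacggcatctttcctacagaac
ISG15 (chr1:1001986-1002086, intron of ISG15, 271): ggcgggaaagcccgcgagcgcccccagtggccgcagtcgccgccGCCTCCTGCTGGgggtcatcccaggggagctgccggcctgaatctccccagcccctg
MX (chr21:41460745-41460845, intron of MX1, 218): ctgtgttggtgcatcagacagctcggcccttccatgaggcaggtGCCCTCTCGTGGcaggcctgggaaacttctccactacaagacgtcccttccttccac
HERC (chr4:88369380-88369480, intergenic, 190): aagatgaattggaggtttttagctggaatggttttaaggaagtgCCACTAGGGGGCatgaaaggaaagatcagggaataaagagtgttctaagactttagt
IFIT (chr10:89426392-89426492, intergenic, 133): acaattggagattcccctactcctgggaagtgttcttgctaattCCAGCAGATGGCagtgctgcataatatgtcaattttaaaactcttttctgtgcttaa

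Loops are pairs of 5 kb bins with more read pairs than MAPS, the loop caller, expects. The list labelled SMC1 holds 28012 loops with 788356 read pairs, and the list labelled CTCF holds 80487 loops with 2666327. The study's table of loop numbers gives 80487 to SMC1 and 28012 to CTCF, the reverse of the labels. The study also states that its loops have an anchor enriched in the target protein. In the list labelled SMC1 no loop lacked a CTCF peak in an anchor and 11 lacked an SMC1 peak, whereas in the list labelled CTCF no loop lacked an SMC1 peak and 3745 lacked a CTCF peak. Both the study's numbers and the peaks in the anchors thus match the lists with their labels exchanged. The labels were kept here, so each list is called by its label and not by the target it measured. Read the other way, the counts of the lists change places.

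Loops were listed at a larger share of these genes than of coding genes in both lists. A listed loop has a peak in an anchor per the study, and the members had SMC1 start peaks more often. The loop shares are thus not independent of the peak shares. In the list labelled CTCF, 34 of 48 members (70.8%, 56.8 to 81.8%) had a loop anchor within 1 kb of a start, beside 48.1% of all coding genes. In the list labelled SMC1 it was 19 of 48 (39.6%, 27.0 to 53.7%), beside 25.4%. All 19 also had a loop in the other list, and 14 members had none in either. Genes with 5 or more starts carried much of this, with loops labelled CTCF at 22 of 26 members (84.6%) and 60.5% of coding genes, while with 2 to 4 starts the shares were 52.4% and 48.2%. For loops labelled SMC1 the direction turned with 2 to 4 starts, at 4 of 21 members (19.0%) and 25.1% of coding genes, and with 5 or more it was 15 of 26 (57.7%) and 32.9%. Of the 20 members with SMC1 and no CTCF at a start, 15 (75%) had a loop labelled CTCF, beside 50.9% of the 3943 coding genes of that kind.

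**Figure D4:**
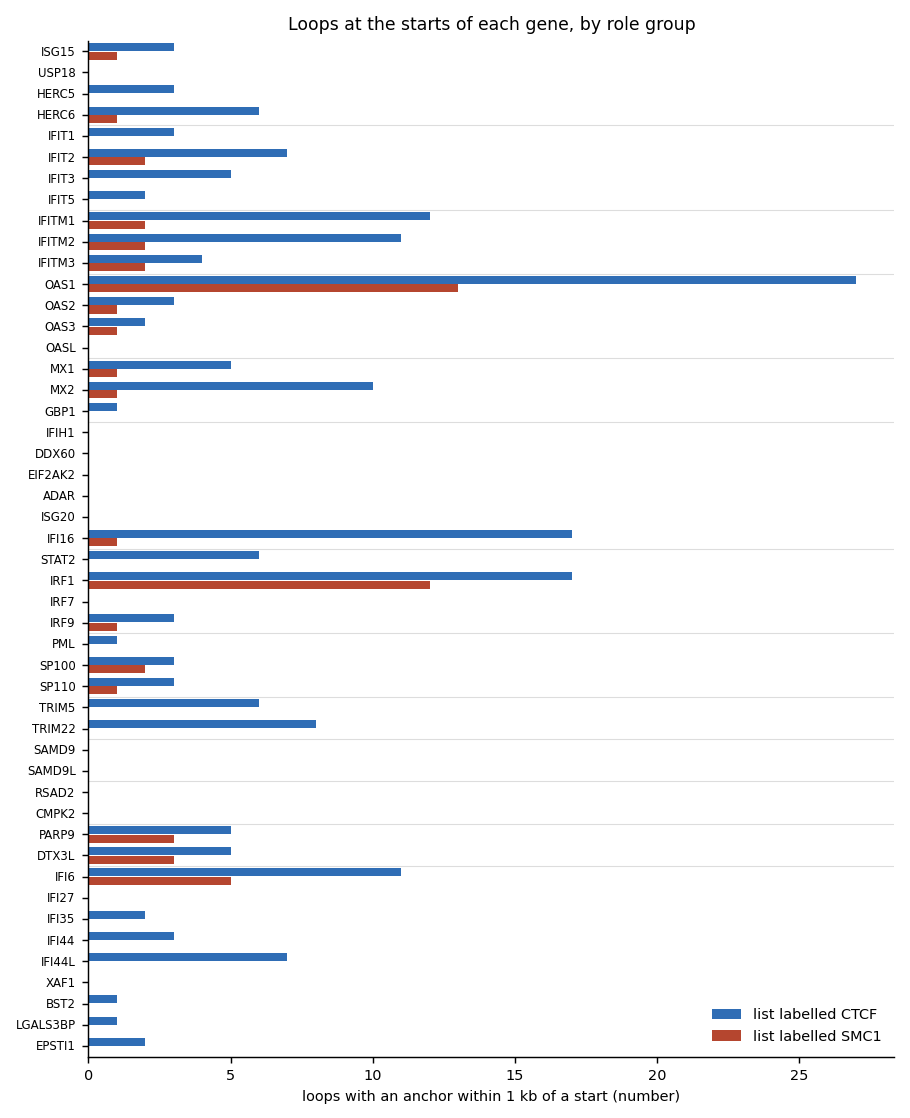
Number of loops with an anchor within 1 kb of a start of each of the 48 genes, in the list labelled CTCF (blue) and the list labelled SMC1 (red). OAS1 has the most in both lists, 27 and 13, followed by IRF1 with 17 and 12.

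The members had 164 distinct loops labelled CTCF and 45 labelled SMC1, and 38 bin pairs were in both lists. The loops labelled CTCF had a median of 32 read pairs, beside 25 for all loops at coding starts, a median ratio of observed to expected pairs of 3.04, beside 3.66, and a median span of 80 kb, beside 105 kb. Those labelled SMC1 had a median of 23 pairs, beside 23, a ratio of 3.76, beside 3.71, and a span of 90 kb, beside 115 kb. The median span of member loops was thus shorter in both lists. The other anchor also lay at a coding start in 50 of the 164 (30.5%) and in 12 of the 45 (26.7%). Of all loops at coding starts, 17.5% and 20% had starts at both ends. These shares are not on the same basis, since a loop with starts at both ends can enter a set of genes from either end. No excess can be read from them. Loops between 2 members numbered 19 and 5. Adjacent bins of 1 contact are listed as separate loops, so these counts are not numbers of independent contacts.

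OAS1 had the most loops of all members, with 27 labelled CTCF and 13 labelled SMC1. Of the 27, 21 used the bin chr12:112900001-112905000, which holds no OAS1 start but the strong upstream CTCF peak, and 6 used the next bin, which holds the starts. All 13 loops labelled SMC1 used the upstream bin. Each of these loops ran to the right, towards OAS3 and OAS2, and the longest spanned 150 kb. The loop with the most pairs, across 20 kb, had 132 against 44.6 expected, and the loop across 130 kb had 95 against 9.95, a ratio of 9.55, beside 28 against 5.47 in the list labelled SMC1. The bin of the OAS3 start was reached with 89 pairs against 30.7, and that of the OAS2 start with 40 against 15.5. OASL, which lies apart on the same chromosome, had no loop.

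IRF1 had 17 loops labelled CTCF and 12 labelled SMC1, nearly all towards lower coordinates, past the 3′ end of the gene. In both lists the highest number of read pairs at any member belonged to the contact that joined chr5:132385001-132390000 to chr5:132495001-132500000, 110 kb apart, with 180 pairs against 24.5 expected in the list labelled CTCF and 73 against 8.05 in the other. Its right bin holds an alternative start, and the bin of the canonical start, chr5:132490001-132495000, had 5 loops in each list with at most 69 and 29 pairs. The left bin had no coding start within 1 kb.

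IFI16 had 17 loops labelled CTCF and 1 labelled SMC1. Of the 17, 13 used the bin chr1:158995001-159000000 with the strong upstream peak, and they spanned 75 to 795 kb. The highest ratio of any member loop, 16.8, belonged to the contact 205 kb to the left, with 97 pairs against 5.77, and the 1 loop labelled SMC1 was the same bin pair with 21 against 3.34. Other anchors reached MNDA and AIM2, which belong to the same HIN-200 family, with 25 pairs against 5.64 and 20 against 7.91.

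**Figure D5:**
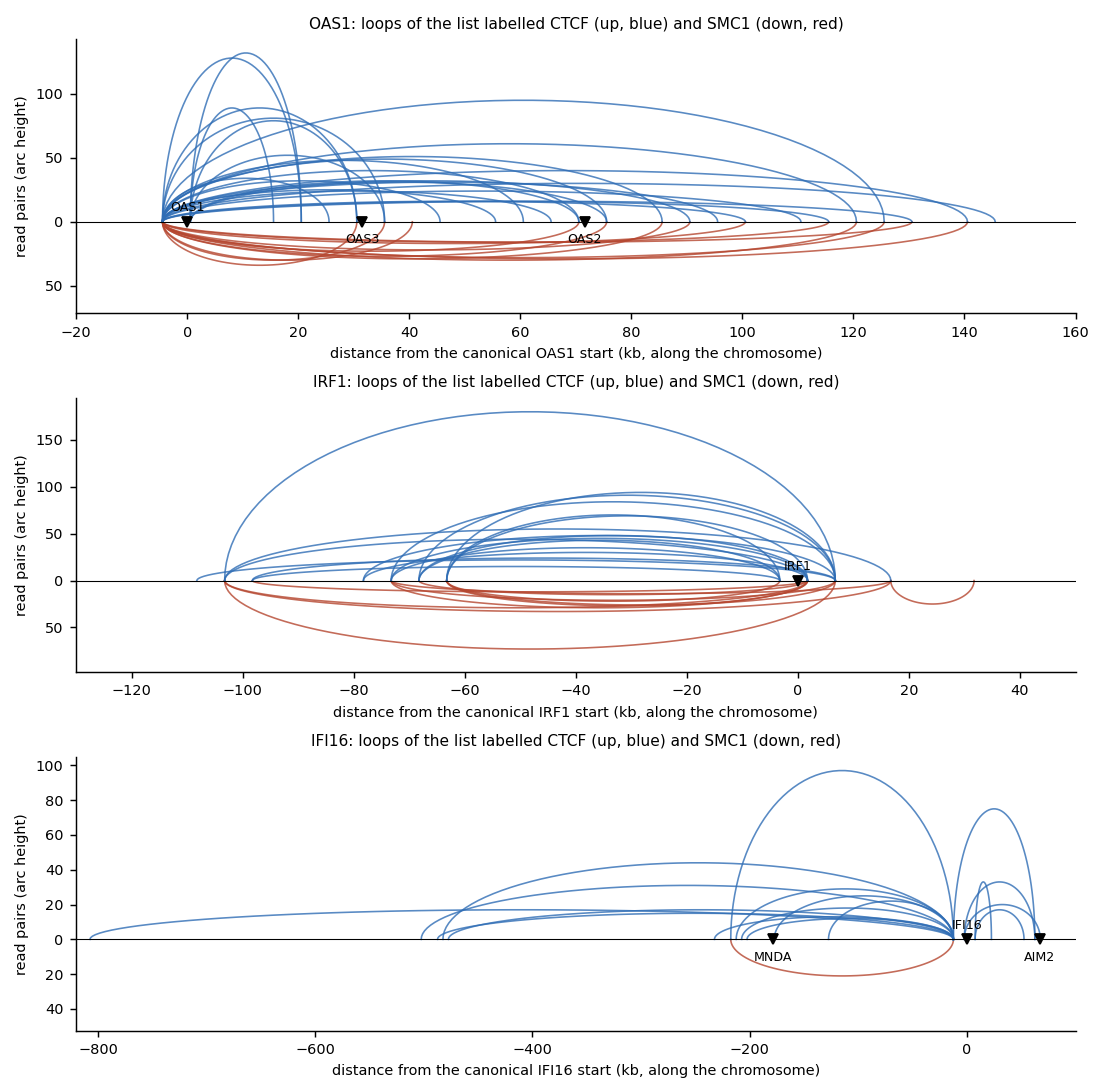
Loops at OAS1, IRF1 and IFI16 drawn as arcs between bin centres, by distance (kb) along the chromosome from the canonical start, with arc height giving read pairs in the list labelled CTCF (up) and SMC1 (down) and triangles marking canonical starts. OAS1 loops all run to the right, IRF1 loops peak at 180 pairs, and most IFI16 loops run to the left from the same upstream bin.

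Loops inside the family loci joined the members to each other. MX2 and MX1 were joined by 5 loops labelled CTCF, the strongest with 65 pairs against 20.6, and this bin pair had 19 against 4.81 in the list labelled SMC1. The anchor at MX2 did not hold its start but the peaks of 97.4 and 102.4. IFITM3 was joined to the bins of IFITM1 and IFITM2 across 10 and 15 kb, with 39 pairs against 8.53 in the stronger case and 27 against 8.82 in the other list. These starts lie within 1 kb of shared bins, so IFITM1 and IFITM2 have 11 loops in common. IFI44L and IFI44 were joined with 42 pairs against 12.7, and HERC6 and HERC5 with 16 against 3.88. In the IFIT locus IFIT3 was joined to IFIT5 with 44 pairs against 19.6, and IFIT2 to IFIT1 with 23 against 10.2. The loop with the most pairs at IFIT3, 138 against 63.3, ended 35 kb away at a bin without a coding start, and its ratio of 2.18 was among the lower ones.

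PARP9 and DTX3L shared 5 loops labelled CTCF and 3 labelled SMC1. Their strongest reached PARP14, another ADP-ribosyltransferase induced by interferon, across 115 kb with 173 pairs against 24.3, and 26 against 6.01 in the other list. SP100 and SP110 both reached the bin chr2:230610001-230615000, over 195 kb with 48 pairs against 17.1 and over 385 kb with 44 against 10.7. TRIM5 and TRIM22 were joined by 27 pairs against 11.2 and, from the bin they share, reached TRIM6 and TRIM34 with 26 against 8.72 and 21 against 5.67. IFI6 had 11 loops labelled CTCF and 5 labelled SMC1, among them one to FAM76A with 81 pairs against 17.7. STAT2 had 6 and IRF9 3 loops labelled CTCF, with at most 54 and 44 pairs. SAMD9, SAMD9L, RSAD2, CMPK2, USP18, OASL, XAF1, IRF7 and IFI27 had no loop in either list. The same held for 5 of the 6 genes listed as nucleic acid sensors and RNA-acting enzymes, all but IFI16.

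The other genes of the interferon pathway were occupied unevenly by role. Of 46 such genes, 31 (67.4%, 53.0 to 79.1%) had an SMC1 peak and 21 (45.7%) a CTCF peak, close to the 63.3% and 45.0% of coding genes, and 10 (21.7%) had SMC1 alone. All 6 receptor genes, all 5 kinase and STAT genes, all 13 sensing and induction genes and all 4 feedback genes had an SMC1 peak, whereas 3 of the 18 ligand genes did. Outside the ligands the pathway was thus occupied by SMC1 as often as the members were. The feedback inhibitors SOCS1 and SOCS3 had SMC1 values of 225 and 172 and CTCF values of 254 and 186. TLR3, an endosomal sensor of double-stranded RNA, followed with 136 and 140, and RIGI, the cytoplasmic sensor RIG-I, had 49.8 and 38.3. Loops labelled CTCF were at 32 of the 46 (69.6%) and loops labelled SMC1 at 17 (37.0%), near the shares of the members, and the ISRE core was in 5 of 36 promoters (13.9%).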

How the data were processed

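SMC1 FA-EGS HiChIP and CTCF FA-HiChIP of the HG00731 LCL were used, as 1 peak list and 1 loop list for each target with 2 replicates pooled by the authors. Reads had been aligned to hg38 with BWA-MEM, filtered for a mapping quality above 30 and deduplicated, and peaks were called without input by MACS3 3.0.1 (q-value limit 0.01). The fold enrichment deposited by the authors is a ratio of the summit pileup to that expected locally in the same pooled library, and the deposited significance is −log10 of the q-value. The loop lists deposited by the authors hold raw counts of read pairs between 5 kb bins beside the number expected by the MAPS regression. The false discovery rate and the cluster P of the loops were not used, and depth per replicate is not given in the lists.

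Starts of protein-coding transcripts came from GENCODE v44 (hg38). A gene was counted where a peak or anchor lay within 1 kb of a start, or a summit within 20 kb, and shares were set beside those of all 19626 coding genes with Wilson 95% intervals. No test was run, as each target has 1 list. The 48 genes, the 46 other pathway genes, the role groups and the motifs were chosen with earlier results of these data known. All 48 genes were accounted for, and those with the highest peaks, the most loops or the strongest loop, without peaks, or in families sharing a locus were described in full. Alternatives varied the windows, the transcripts, the −log10 q limit (5 and 10), the read pairs and the target of the loop lists, and 1 alternative, without genes on alternate sequences (90% or more of 31-base words), was added after the values were seen. Scripts ran in Python 3.11.15 with NumPy 2.4.6 and pandas 2.3.3, were tested on simulated intervals and planted motifs, and sequences were read from hg38 and RefSeq.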

Additional observations from a re-analysis of the deposited data

How the results depend on the processing

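Counts of members were recomputed under 42 combinations of result and alternative, of which 6 were added after the data were seen. In 40 the count stayed within 1.5 times the value given above, and in all 42 the share of members was above that of coding genes. Only exchanging the loop lists between the targets moved a count further, to 34 members for SMC1 and 19 for CTCF. No paired analysis was possible because each target has 1 pooled list, and for the same reason no replicate could be left out in turn. Depth per replicate is not in the lists and SMC1 was sequenced more deeply, so the values of the targets are not on an equal footing and a missing peak or loop says only that none was listed.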
